A study of Saccharomyces cerevisiae with 28 samples.

Results

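On a splicing-specific array of budding yeast, 231 of 982 named genes were followed by 3 or more probes, and 98 of these encode ribosomal proteins. The 86 genes described here are those with at least 3 probes (18 spots) whose symbol marks no ribosomal protein and that belong to none of several small gene groups set apart by name, such as actin, tubulin, meiotic, respiratory and ubiquitin-conjugating enzyme genes. Those groups took 47 more genes, and the other 751 genes on the array had 1 or 2 probes. The choice used the probe count and the symbol, not the measured ratios. Of the 86 genes, 84 had 3 probes and 2, GLC7 and NMD2, had 4. All 86 are protein coding, and 68 of them are on a list of intron-containing genes written from general knowledge.

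An intron is cut out of a pre-mRNA by the spliceosome, which first forms a lariat at the branch point and then joins the exons. Introns are rare in budding yeast, and outside the ribosomal protein genes they sit in genes of many unrelated functions. An array with several probes for a gene can therefore show both the level of the transcript and a difference between its parts. Ist3 belongs to the RES complex of the activated spliceosome, Isy1 to the Prp19-associated complex, and Tgs1 adds methyl groups to the cap of small nuclear RNAs. Csn9, Csn12 and Pci8 are proteins of the COP9 signalosome or of complexes related to it. The signalosome itself acts on Nedd8 carried by cullins.

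The study asked how splicing changes in strains that lack non-essential genes tied to it by interaction screens. Total RNA of each mutant was hybridised on 2-colour arrays together with RNA of wild-type cells grown alike, on 2 arrays per condition with the dyes exchanged. The arrays labelled csn12, YPR045C (THP3), ist3, csn9, pci8 and isy1 came from cells in logarithmic growth at 30 °C. Cells of the strains labelled tgs1 and ynr004w (SWM2) were taken at 30 °C, as the 0 min sample, and then 10, 25 and 40 min into growth at 16 °C, which makes 14 conditions and 28 arrays. By the labels, each mutant differed from wild type by the gene that names it, and strain names below stand for the arrays so labelled. The sources used here name no strain background, mating type or number of cultures, and do not say if one wild-type RNA served several strains. The leading number in the array titles is shared by csn12, YPR045C and ist3, by csn9 and pci8, and by tgs1 and ynr004w. It differs between these sets, and isy1 has its own. What it stands for is not stated, and strains with different numbers cannot be separated from it.

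An array had values for 8893 to 9199 of its 9216 spots, and array medians lay between -0.028 and 0.028. Values below are mean log2 ratios ± SE of mutant over wild type. The base and the direction are likely rather than settled, since neither is stated and the direction rests on the mutant being channel 1 on every array. The titles of the second arrays name wild type first. With the opposite direction on every array, each "higher" below would read "lower" and each "lower" would read "higher". With the second arrays alone turned round, a pair mean would hold the dye effect in place of the mutant effect, which was not tested. The deleted genes gave no check of the labels. On the arrays labelled ist3, IST3 lay between -0.32 and 0.63, and ISY1 lay between -0.15 and -0.10 on those labelled isy1. TGS1 lay between -0.86 and 0.67 at 30 °C and between -1.16 and 0.51 at 16 °C on those labelled tgs1. None of the deleted genes is among the 86. In RNA from a whole culture, fewer cells that express a gene and less RNA per cell cannot be told apart.

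Each comparison rested on the mean of a dye-swapped pair, in which the effect of the dye cancels. That effect was large for the 86 genes. Their 2 arrays of a pair correlated below 0 across genes in 14 of 14 pairs, from r = -0.83 (tgs1 at 30 °C) to -0.05 (pci8). It was not particular to them. Over all genes the 2 arrays correlated above 0 in only 3 of 14 pairs, from r = -0.54 (tgs1 at 30 °C) to 0.23 (isy1). With the mean profile of each dye orientation removed, the pairs correlated above 0 in 5 of 14 for the 86 genes, against 12 of 14 over all genes. These correlations run over genes, which are not independent replicates. Between 38 and 75 of the 86 genes had opposite signs on the 2 arrays of a condition, a count not made over all genes. For this reason the values on single arrays are given beside the means for most of the genes described, with the array that carried the mutant in Cy5 first and the array that carried it in Cy3 second.

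A gene was called when limma, fitted to all 14 pair means in 10 strain-by-temperature groups, gave an adjusted p under 0.05 over all 982 genes. The spread came from the time points at 16 °C, and thus from tgs1 and ynr004w arrays alone. The same spread was assumed for the 8 groups with 1 pair. A second limma fit entered the 28 arrays singly with a dye term, so that its spread was measured between dye-swapped arrays of one condition. This fit over single arrays had a median SE of 0.146 for a condition with 1 pair, against 0.065 in the fit over pair means. No label tells whether both dye-swapped arrays came from one culture, so the p-values measure the spread between these hybridisations, which may be technical.

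Averaged over their probes, the 86 genes stayed close to wild type. The median absolute log2 ratio lay between 0.055 (ynr004w at 30 °C) and 0.13 (ist3), and the largest was -0.58 for VMA10 in csn12. A range over probes is wider than the mean of the same probes under noise alone, so the sizes of these measures cannot be compared. The median gap between the highest and the lowest probe of a gene lay between 0.22 (ynr004w at 30 °C) and 0.51 (ist3), and it reached 2.57 for TAN1 in ist3. A gene mean can hide probes that moved apart, so both quantities are given. Of the 86 genes, 11 were called in no comparison with wild type by their mean, and MRPL44 was called in the most, 6 of 10. Calls per gene were not counted over all genes, so these numbers have no share of the array beside them.

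**Figure D1:**
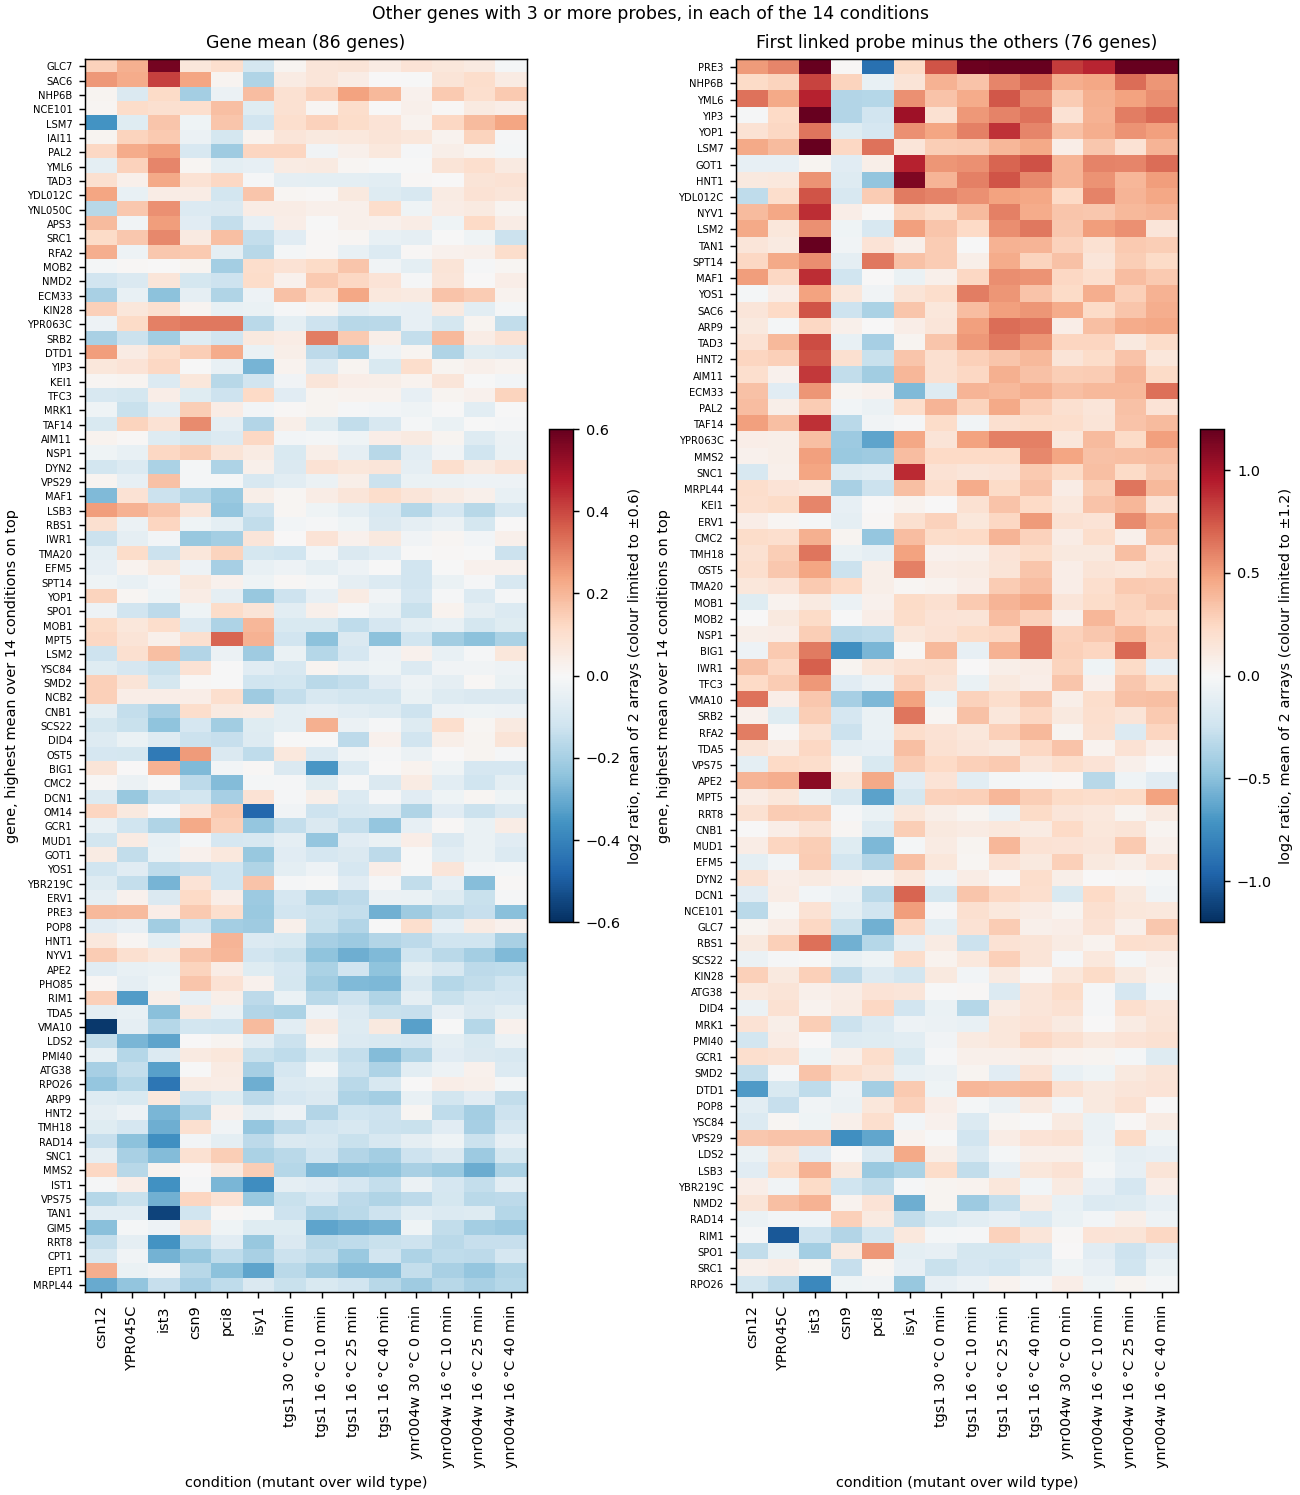
Heat map of the mean log2 ratio of mutant over wild type in each of 14 conditions (columns), for the gene mean of 86 genes (left) and for the first linked probe minus the gene's other probes in 76 genes (right). Genes run from the highest to the lowest mean over conditions, and colour marks the log2 ratio. Gene means stay within 0.58 of wild type on either side, while the probe difference is positive for most genes in csn12, YPR045C, ist3, isy1, tgs1 and ynr004w, and in csn9 and pci8 for only 25 and 28 of the 76.

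In the log-phase strains, the count of genes called by their mean was highest in ist3, where 15 of 86 were higher and 22 lower. That is 43% of them, against 56.4% of all genes. In isy1 4 were higher and 27 lower (36% against 42.2%), in pci8 9 and 14 (26.7% against 32%), and in csn12 8 and 9 (19.8% against 36.8%). In csn9 5 were higher and 5 lower (11.6% against 21.9%), and in YPR045C 4 and 5 (10.5% against 18.9%). The share called was thus below that of all genes in each of the 6 strains, and no test of this difference was made. Outside isy1 a lower share was not particular to the 86 genes. Among the 47 genes set apart by name it was 44.7% in ist3, 27.7% in pci8 and 17% in csn12. It was 14.9% in csn9, 8.51% in YPR045C and 42.6% in isy1. With 1 or 2 probes, 59.7% of genes were called in ist3, 41.3% in isy1 and 31% in pci8. Their shares were 41.1% in csn12, 23% in csn9 and 22.4% in YPR045C. The direction was uneven in isy1, where 21.4% of all genes were called lower and 20.8% higher. Of all genes, 17.9% were called higher and 18.8% lower in csn12, 7.74% and 11.2% in YPR045C, 26.7% and 29.7% in ist3, 10.8% and 11.1% in csn9, and 17.4% and 14.6% in pci8. Over single arrays, 1 of the 86 genes was called in csn12, against 4.68% of all genes (1.63% higher and 3.05% lower), and 4 in ist3, against 7.74% (4.89% higher and 2.85% lower). None was called in YPR045C, csn9, pci8 and isy1, against 1.02%, 0.305%, 1.02% and 9.67% of all genes (6.21% higher and 3.46% lower in isy1). In these 4 strains 1, 3, 3 and 7 genes had an unadjusted p under 0.05 in that fit. Unadjusted counts, here and below, were made for the 86 genes alone and not over all genes. Counts for 3 strains hung on the processing. Scaling the arrays to one spread gave 37 calls in csn9 and 43 in pci8, and the median over probes in place of the mean gave 5, 13 and 20 in csn9, pci8 and isy1.

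In tgs1 and ynr004w the means leaned to lower values at both temperatures. Their medians were -0.057 at 30 °C and -0.057 at 16 °C in tgs1, and -0.050 and -0.036 in ynr004w. This lean was not particular to these strains. Medians were -0.080 in isy1, -0.044 in csn12, -0.040 in YPR045C, -0.036 in pci8, -0.024 in ist3 and 0.0054 in csn9. It also differed by dye orientation. At 30 °C the median was 0.057 on the first and -0.16 on the second tgs1 array, and 0.048 and -0.16 on those of ynr004w. The counts called at 30 °C rested on fewer pairs than those at 16 °C. In tgs1 at 16 °C 36 of 86 genes were lower and 5 higher, 47.7% against 46.1% of all genes. Of all genes there, 23.3% were called lower and 22.8% higher. In ynr004w at 16 °C 22 were lower and 2 higher, 27.9% against 32.8% of all genes. Of all genes there, 16% were called lower and 16.8% higher. Among the genes called at 16 °C, 8 of 41 in tgs1 and 5 of 24 in ynr004w had 1 sign on all 6 arrays. This was not counted over all genes. Over single arrays 6 genes were called in tgs1 and 2 in ynr004w, all lower, against 9.98% of all genes in tgs1 (5.5% higher and 4.48% lower) and 6.21% in ynr004w (3.26% higher and 2.95% lower). Without the 25 min point of tgs1 22 genes were called there. Without the 25 or the 40 min point of ynr004w, 13 or 11 were called in that strain. At 30 °C 0 genes were called in tgs1 by limma over pair means and 0 over single arrays. Of all genes, 5.7% were called over pair means (2.65% higher and 3.05% lower) and 0.916% over single arrays. In tgs1 at 30 °C 14 of the 86 had an unadjusted p under 0.05 over pair means, 2 higher and 12 lower. In ynr004w at 30 °C 16 did, all of them lower. Neither count has a share over all genes beside it, so no lean is read from them. In ynr004w at 30 °C 2 were called lower, MRPL44 and VMA10, against 5.91% of all genes (2.34% higher and 3.56% lower), and 1 without the 10 or 25 min point of either strain and 0 without the 40 min point of ynr004w.

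**Figure D2:**
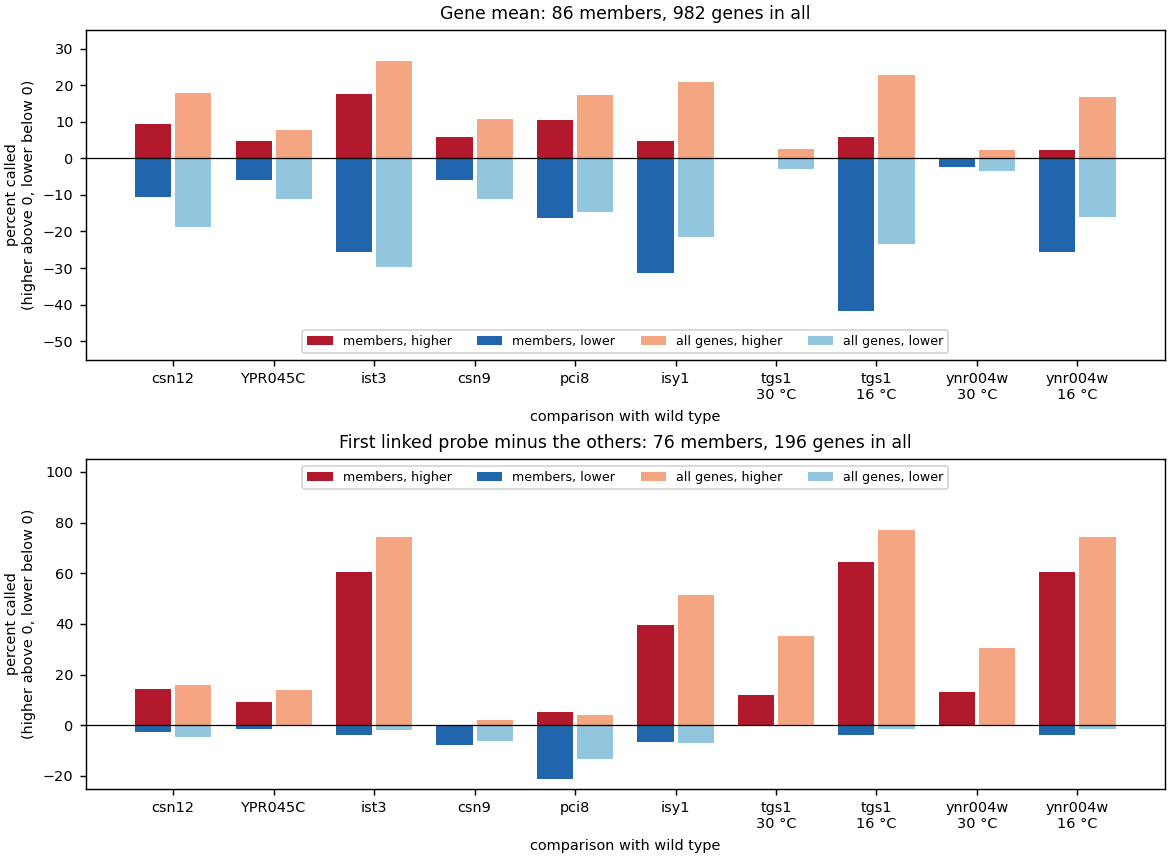
Percent of genes called by limma over pair means in each comparison with wild type, higher above 0 and lower below 0, with the 86 or 76 genes described here in dark bars and all genes of the same measure in pale bars. The upper panel shows the gene mean and the lower panel the first linked probe minus the others. In the upper panel the dark bars lean downward in isy1 and at 16 °C, and in the lower panel they stand upward in ist3, isy1 and at 16 °C but below the pale bars.

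The temperatures did not differ in a way that the design could show. For 16 °C minus 30 °C, limma over pair means called 0 of the 86 genes in tgs1 and 0 in ynr004w, with 3 and 6 at an unadjusted p under 0.05, and the fit over single arrays called 0. Over all genes 0% were called in either. GIM5, chosen after its values were seen, had the lowest adjusted p in tgs1, with a difference of -0.23 ± 0.063 (adjusted p = 0.133). For tgs1 minus ynr004w at 16 °C, 0 of the 86 were called by either fit, with 5 at an unadjusted p under 0.05, against 0.509% of all genes.

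Where on the array a probe was printed divided the probes of a gene. In 76 of the 86 genes, 2 probes sat in linked wells, 2 blocks apart in the same row, with the same column number or one higher by 6. The first linked probe is the one in the lower block where both share a column, and the one in the higher block where they lie 6 columns apart. The other is the second linked probe, and a probe elsewhere is the third. The sources used here do not say whether a probe follows an exon, an intron or a junction. The difference between the first linked probe and the mean of the gene's other probes is called the probe contrast. It was known from earlier results of these data that this contrast rises in several strains over the whole array, so its overall sign is a description.

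Among the 76 genes, the first linked probe stood above both others in ist3, with medians of 0.22, -0.15 and -0.21 for the first, the second and the third probe. The order was the same in isy1, at 0.06, -0.06 and -0.14. At 40 min in the cold the medians were 0.12, -0.19 and -0.08 in tgs1 and 0.10, -0.13 and -0.04 in ynr004w. In pci8 and csn9 the order was turned round, with medians of -0.11, 0.0036 and 0.0062 in pci8 and -0.05, 0.02 and 0.07 in csn9. Both strains share a leading number in the array titles that no other strain has, so strain and array series cannot be told apart. The quartile ranges of the 3 kinds of probe overlapped in ist3, isy1, pci8 and csn9, while at 40 min in tgs1 that of the first linked probes lay above both others.

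**Figure D3:**
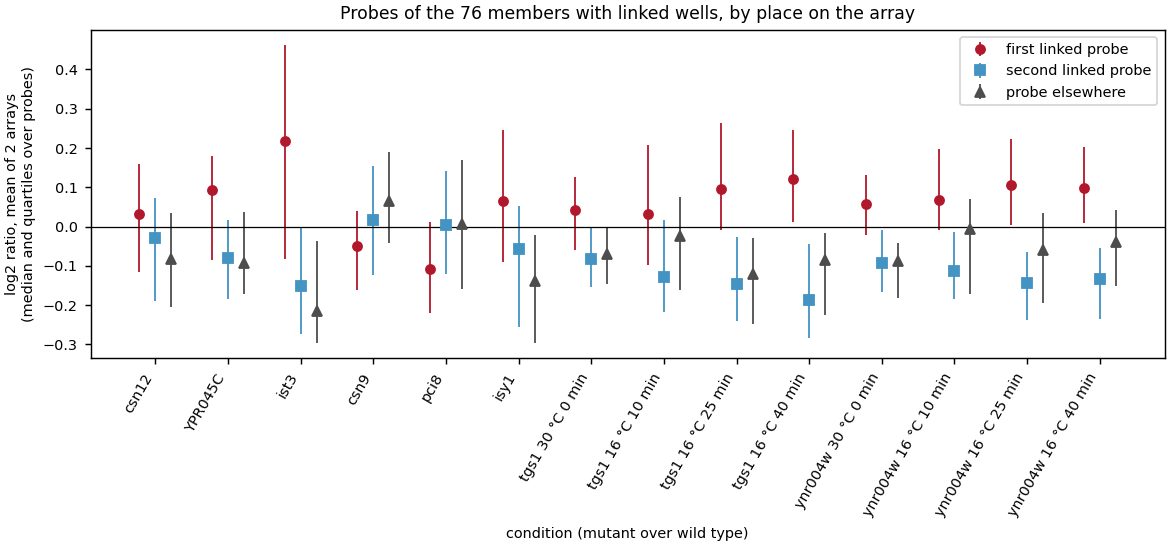
Median log2 ratio of mutant over wild type, with bars to the quartiles over probes, for the first linked, the second linked and the third probes of 76 genes in each of 14 conditions. The first linked probes (circles) lie highest in 12 conditions, most of all in ist3 at 0.22, and lowest in csn9 and pci8.

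The probe contrast was called higher in ist3 for 46 of the 76 genes and lower for 3, 64.5% against 76.5% of the 196 genes with linked wells. In tgs1 at 16 °C 49 were higher and 3 lower (68.4% against 78.6%), in ynr004w at 16 °C 46 and 3 (64.5% against 76%), and in isy1 30 and 5 (46.1% against 58.7%). Over single arrays 25, 32, 27 and 9 genes were called higher in ist3, tgs1 at 16 °C, ynr004w at 16 °C and isy1. Of the 196 genes, 53.6%, 62.2%, 56.6% and 31.1% were called higher over single arrays. Of the 76, 1 was lower there in ist3 and 0 in the other 3. The median contrast of the 76 genes was 0.31 in ist3, 0.25 in tgs1 and 0.21 in ynr004w at 16 °C, and 0.20 in isy1. Over all 196 genes the medians were 0.55, 0.37, 0.34 and 0.30. The 80 ribosomal protein genes with linked wells had medians of 0.91, 0.68, 0.68 and 0.71, and the 40 genes set apart by name 0.36, 0.21, 0.19 and 0.16.

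In the remaining conditions fewer genes were called. Contrasts were higher for 11 genes and lower for 2 in csn12 (17.1% against 20.4% of the 196), 7 and 1 in YPR045C (10.5% against 14.3%), 9 and 0 in tgs1 at 30 °C (11.8% against 35.2%) and 10 and 0 in ynr004w at 30 °C (13.2% against 30.6%). In pci8 4 were higher and 16 lower (26.3% against 17.3%), and in csn9 0 and 6 (7.89% against 8.16%). Over single arrays 1 gene was called in csn12 and 1 in tgs1 at 30 °C, against 3.57% and 12.8% of the 196. None was called in YPR045C, csn9, pci8 and ynr004w at 30 °C, against 0.51%, 0%, 0.51% and 9.69% of the 196. In these, 1, 6, 15 and 4 of the 76 had an unadjusted p under 0.05 in that fit. These counts depended on single time points, because the spread was taken from them. Without the 10 min point of tgs1 at 16 °C they were 20 in csn12, 20 in YPR045C, 15 in csn9, 17 in tgs1 and 20 in ynr004w at 30 °C. Without the 40 min point of ynr004w they were 1 in YPR045C and 0 in csn9. In csn9 the count was 1 without the 25 min point of tgs1 and 2 without the 10 or the 25 min point of ynr004w. Scaling the arrays to one spread gave 30 in csn9, 37 in pci8 and 5 in tgs1 at 30 °C.

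For the probe contrast at 16 °C minus 30 °C, 0 of the 76 genes were called in tgs1 and 0 in ynr004w by limma over pair means, with 10 and 3 at an unadjusted p under 0.05, and 0 over single arrays. Over the 196 genes 0.51% and 0% were called over pair means. Without the 10 min point of tgs1, 9 were called in tgs1 and 1 in ynr004w. ARP9, chosen after its values were seen, had the lowest adjusted p in tgs1, with a difference of 0.46 ± 0.12 (adjusted p = 0.0649). For tgs1 minus ynr004w at 16 °C 0 were called over pair means or single arrays, with 2 at an unadjusted p under 0.05, against 0% of the 196, and 1 was called without the 10 min point of tgs1.

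PRE3, which encodes a catalytic subunit of the proteasome core, had the probe contrast called in the most comparisons, 8 of 10. In tgs1 at 16 °C its 6 arrays ran from 0.77 through a median of 1.42 to 1.58, with a mean of 1.34 ± 0.080 (adjusted p = 1.82e-08, or 1.59e-06 over single arrays). In ynr004w at 16 °C they ran from 0.59 through 1.22 to 1.33, with a mean of 1.14 ± 0.080 (adjusted p = 8.95e-08). All 12 arrays in the cold were thus positive. At 30 °C the contrast was 1.59 and -0.08 on the tgs1 arrays and 1.15 and 0.53 on the ynr004w arrays, with means of 0.76 and 0.84. In ist3 it was 1.72 and 1.21, with a mean of 1.47 ± 0.14 (adjusted p = 1.13e-06). It was smaller in csn12, at 0.32 and 0.70, and in YPR045C, at 0.43 and 0.74, with means of 0.51 and 0.58 (adjusted p = 0.0182 and 0.0229). Both of these calls were absent over single arrays (adjusted p = 0.509 and 0.507). In pci8 the sign was turned, with -1.39 and -0.41 on its arrays and a mean of -0.90 ± 0.14 (adjusted p = 0.00229, or 0.237 over single arrays). In isy1 the contrast was 0.44 and 0.03 and was not called.

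The single probes show where these differences lay. At 40 min in tgs1 the first linked probe of PRE3 was at 0.66, the second at -0.49 and the third at -1.04, and in ynr004w they were at 0.58, -0.39 and -0.95. The mean of the 3 probes hid this, at -0.19 ± 0.040 in tgs1 (adjusted p = 0.00424) and -0.18 ± 0.040 in ynr004w at 16 °C (adjusted p = 0.00635), with arrays of both signs. In isy1 the first probe was at -0.07 and the third at -0.51, and the gene mean fell by 0.22 on the log2 scale. DCN1, whose product helps to attach Nedd8 to cullins, is the other gene on the ubiquitin and proteasome list. Its gene mean was 0.26 and -0.42 on the csn12 arrays, -0.08 and -0.14 on the csn9 arrays and 0.05 and -0.44 on the pci8 arrays. It was called lower in pci8 (mean -0.20) and YPR045C (-0.23), in both with arrays of opposite sign, and in neither over single arrays. In isy1 its probe contrast was 0.52 and 0.89, with a mean of 0.70 ± 0.12 (adjusted p = 0.000186, or 0.0170 over single arrays).

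**Figure D4:**
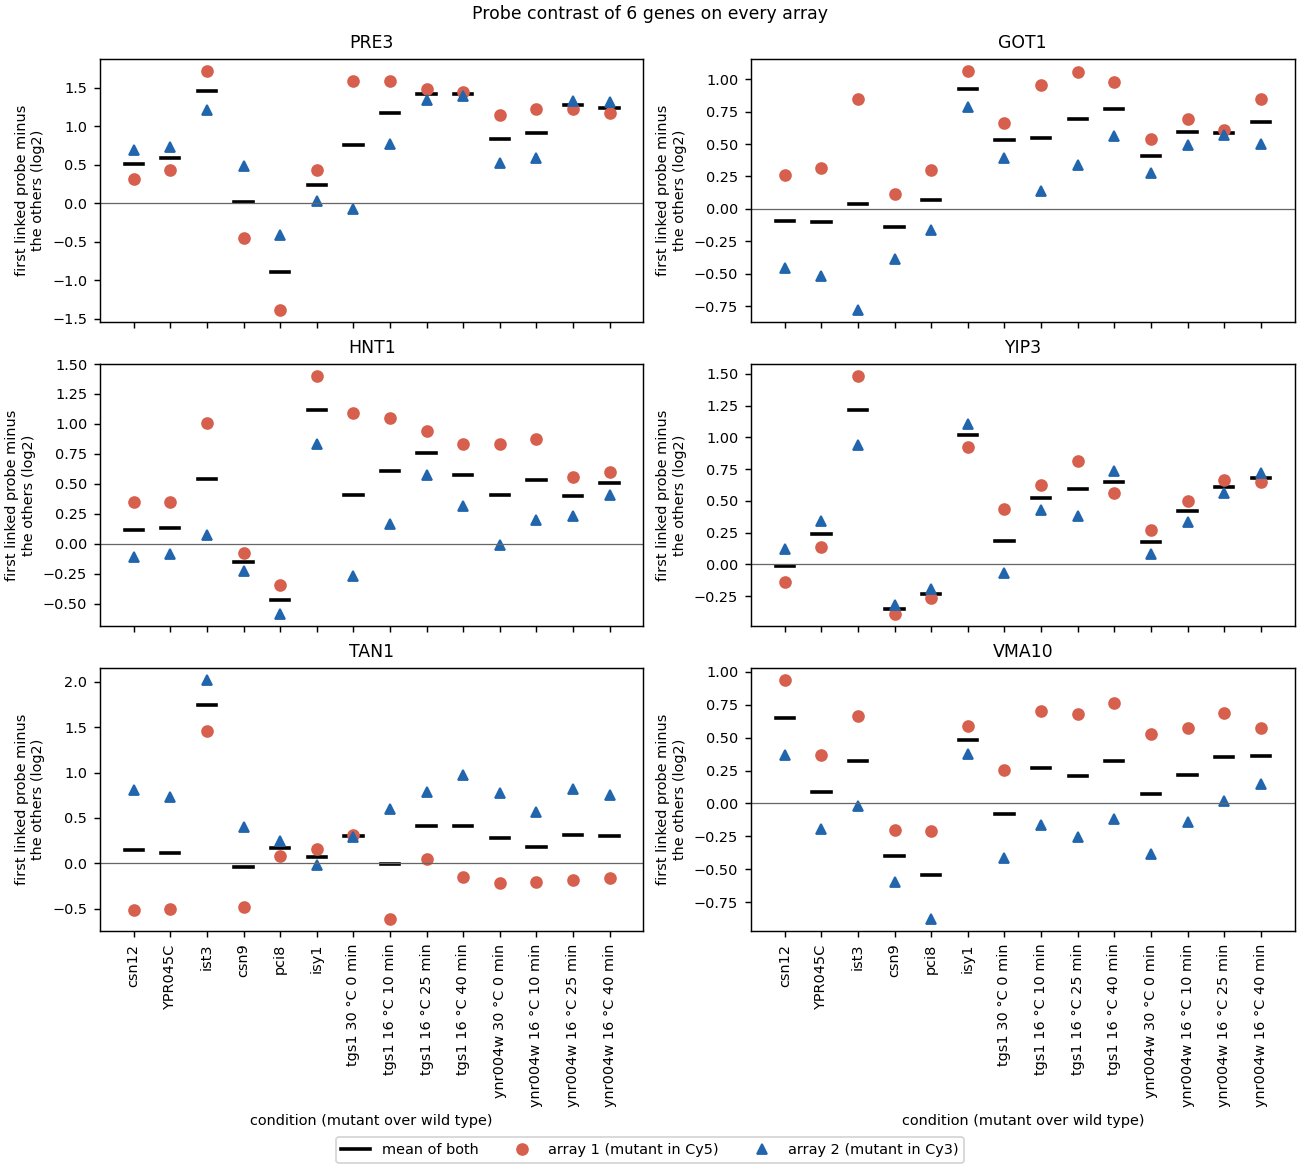
First linked probe minus the mean of the other probes (log2) on each array for 6 genes in 14 conditions, with circles for array 1 (mutant in Cy5), triangles for array 2 (mutant in Cy3) and a line at their mean. PRE3 lies between 0.59 and 1.58 on all 12 arrays at 16 °C and below 0 on both pci8 arrays, and TAN1 lies at 1.46 and 2.02 on the ist3 arrays.

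The list of vesicle traffic and vacuole genes held 12 of the 86. Of the 11 with linked wells, 8 were higher and none lower in ist3, in tgs1 at 16 °C and in ynr004w at 16 °C, and 6 were higher and none lower in isy1. Over the 196 genes 74.5%, 77%, 74.5% and 51.5% were called higher in these comparisons, which is near the share in the list. Medians over the 11 were 0.47 in ist3, 0.27 in tgs1, 0.31 in ynr004w and 0.27 in isy1, against 0.55, 0.37, 0.34 and 0.30 over all 196 genes. GOT1, which acts in transport to the Golgi, had contrasts of 1.06 and 0.79 on the isy1 arrays, with a mean of 0.92 ± 0.11 (adjusted p = 1.27e-05, or 0.000719 over single arrays). At 16 °C its 6 arrays ran from 0.13 through 0.76 to 1.05 in tgs1 and from 0.49 through 0.59 to 0.85 in ynr004w, with means of 0.67 and 0.62. In ist3 the 2 arrays split, at 0.85 and -0.78, and the mean of 0.04 was not called. At 30 °C GOT1 was at 0.66 and 0.39 in tgs1 and at 0.54 and 0.27 in ynr004w, both called over pair means and neither over single arrays.

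YIP3, a membrane protein of the early secretory pathway, was called in both spliceosome mutants and in the cold. Its contrast was 1.49 and 0.94 on the ist3 arrays and 0.93 and 1.11 on the isy1 arrays, with means of 1.21 ± 0.11 (adjusted p = 1.13e-06) and 1.02 ± 0.11 (adjusted p = 9.15e-06). All 6 arrays at 16 °C lay between 0.38 and 0.81 in tgs1 and between 0.34 and 0.72 in ynr004w. Both arrays of csn9 and of pci8 were negative, with means of -0.36 and -0.23 that were not called. On the isy1 arrays the first linked probe of YIP3 was at 0.20 and 0.60, the second at -0.92 and -0.48 and the third at -0.53 and -0.53, so the gene mean was lower too (-0.28 ± 0.058, adjusted p = 0.00356). SNC1, a SNARE of secretory vesicles, had contrasts of 1.31 and 0.48 in isy1 (mean 0.89, adjusted p = 1.50e-05, or 0.0035 over single arrays).

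NYV1, the SNARE of the vacuole, differed by the second linked probe. In tgs1 at 10, 25 and 40 min that probe was at -0.86, -0.75 and -0.79, while the first stayed at 0.01, 0.11 and 0.03. In ynr004w the second was at -0.61, -0.53 and -0.68. The gene mean of NYV1 ran from -0.45 through -0.29 to -0.07 on the 6 tgs1 arrays at 16 °C, with a mean of -0.27 ± 0.033 (adjusted p = 0.000243, or 0.0068 over single arrays). In ynr004w it ran from -0.36 through -0.21 to -0.06, with a mean of -0.21 ± 0.033 (adjusted p = 0.00121, or 0.0419 over single arrays). Its contrast was positive in all 14 pair means, as it was for LSM7 and TMA20, 3 genes singled out after their values were seen. VPS29, a subunit of the retromer that returns proteins from endosomes, went the other way in csn9, at -1.37 and -0.11, with a mean of -0.74 ± 0.145 (adjusted p = 0.0148, or 0.206 over single arrays).

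VMA10, subunit G of the vacuolar proton pump, had the lowest gene mean of any of the 86 genes. It was at -0.42 and -0.74 on the csn12 arrays, with a mean of -0.58 ± 0.078 (adjusted p = 0.000372, or 0.00466 over single arrays). Its second linked and its other probe were at -1.17 and -0.28 on the first array and at -0.73 and -0.99 on the second, while the first linked probe was at 0.21 and -0.50. The contrast in csn12 was therefore positive, at 0.94 and 0.37 (mean 0.65, adjusted p = 0.000908, or 0.00936 over single arrays). In ynr004w at 30 °C the gene mean of VMA10 was -0.40 and -0.26, with a mean of -0.33 ± 0.078 (adjusted p = 0.0380, or 0.49 over single arrays). In csn9 and pci8 the contrast was lower, at -0.21 and -0.60 and at -0.21 and -0.88, with means of -0.40 and -0.54 that were not called over single arrays (adjusted p = 0.217 and 0.0859). BIG1, needed for cell wall glucan, had contrasts of -0.69 and -0.79 in csn9 (mean -0.74 ± 0.20, adjusted p = 0.0423, or 0.206 over single arrays). Only 2 of its probes entered the fit, since the third had no value on either csn12 array.

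**Figure D5:**
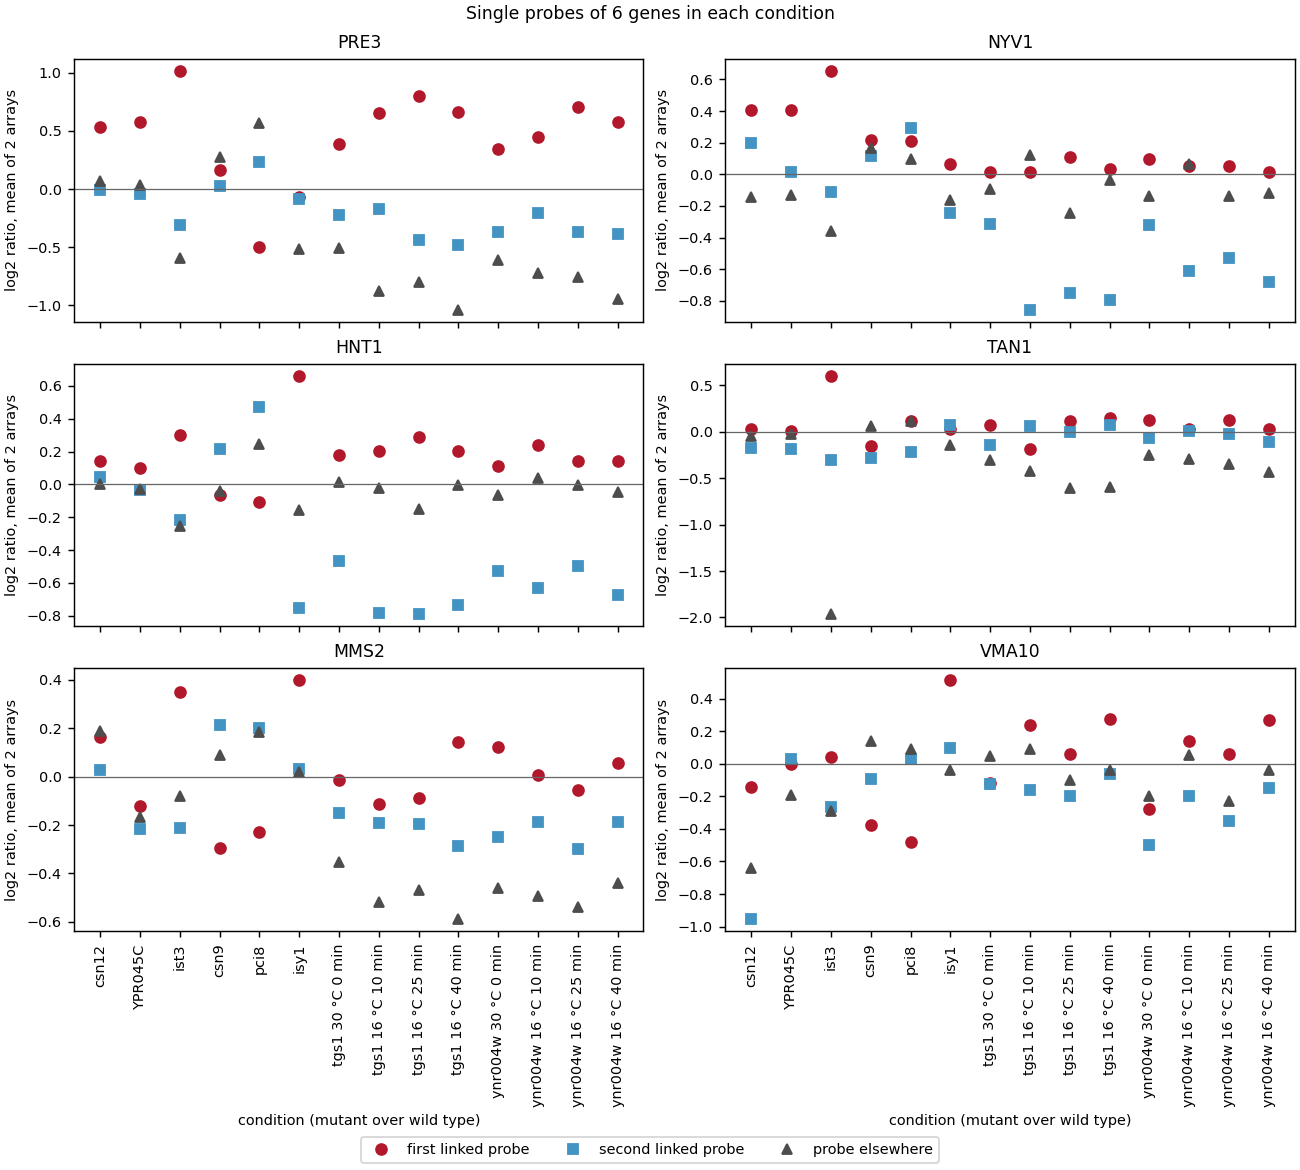
Log2 ratio of mutant over wild type, mean of 2 arrays, of the first linked, the second linked and the third probe of 6 genes in 14 conditions. In NYV1 and HNT1 the second linked probe (squares) is the low one at 16 °C, between -0.86 and -0.50, in TAN1 the third probe (triangles) falls to -1.97 in ist3, and in VMA10 both are low in csn12.

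Among the genes of splicing and RNA processing, 8 of the 86, TAN1 had the largest contrast among the 76. TAN1 encodes a protein needed to acetylate cytidine in certain tRNAs. On the ist3 arrays the third probe was at -2.73 and -1.21, its second at 0.59 and -1.19 and its first at 0.40 and 0.82. The contrast was 1.46 and 2.02, with a mean of 1.74 ± 0.14 (adjusted p = 5.80e-07, or 2.40e-06 over single arrays). The gene mean was -0.58 and -0.53, with a mean of -0.55 ± 0.058 (adjusted p = 8.48e-05, or 0.00418 over single arrays). In isy1 its contrast was 0.15 and -0.02 and its gene mean -0.01, so neither was called there. TAD3, part of the enzyme that makes inosine in tRNAs, had a contrast of 0.78 in ist3 and 0.56 in tgs1 at 16 °C (arrays from -0.11 to 1.17), both also called over single arrays, and 0.09 and 0.69 on the YPR045C arrays (mean 0.39, adjusted p = 0.0318, or 0.486 over single arrays).

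Core splicing proteins are encoded by 4 of these genes. LSM7, of the Lsm ring on U6 RNA, had contrasts of 1.165 and 1.25 in ist3, with a mean of 1.21 ± 0.11 (adjusted p = 1.12e-06, or 0.00218 over single arrays), its first linked probe being at 1.28 and 0.67. In csn12 the gene mean of LSM7 was -0.05 and -0.67 (mean -0.36, adjusted p = 0.00118, or 0.0778 over single arrays). LSM2, of the same ring, had contrasts of 0.72 and 0.39 in ist3 and 0.65 and 0.34 in isy1, with means of 0.55 and 0.50, of which only that in ist3 was also called over single arrays. SMD2, of the Sm ring on the other spliceosomal RNAs, was called once by its contrast, with 1.37 and -0.68 on the ist3 arrays. MUD1, a protein of the U1 small nuclear particle, was called by its contrast in pci8, at -1.13 and 0.06, and in tgs1 at 16 °C, where its arrays ran from -0.49 to 0.98. Over the 8 genes the contrast was higher in 5 in ist3, 6 in tgs1 and 5 in ynr004w at 16 °C, and 2 in isy1, and lower in none of these, where 74.5%, 77%, 74.5% and 51.5% of the 196 genes were called higher. In pci8 it was higher in 1 and lower in 3, where 4.08% and 13.3% of the 196 were. POP8, a subunit of RNase P and RNase MRP, was lower by its gene mean in pci8, at -0.18 and -0.23, in isy1, at -0.04 and -0.39, and in ist3, at 0.13 and -0.55, over pair means alone.

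MPT5, an RNA-binding protein of the Puf family, had the highest gene mean of the 86 in pci8, at 0.50 and 0.19 (mean 0.35 ± 0.066, adjusted p = 0.00437, or 0.447 over single arrays). It was also the highest in isy1, at 0.17 and 0.25 (adjusted p = 0.0270, or 0.589 over single arrays). In pci8 its contrast was -0.74 and -0.54, with a mean of -0.64 (adjusted p = 0.00442, or 0.0859 over single arrays), where the third probe stood at 0.83. At 16 °C its gene mean was lower in tgs1 and ynr004w, at -0.19 and -0.22, with arrays of both signs and over pair means alone. NMD2, a factor of nonsense-mediated decay, a pathway that also destroys unspliced transcripts, was one of 5 genes with a lower contrast in isy1. Its arrays were at -0.76 and -0.41, with a mean of -0.59 ± 0.15 (adjusted p = 0.00437, or 0.065 over single arrays).

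Of 4 metabolic genes, HNT1 had the highest contrast of the 76 in isy1. HNT1 encodes a hydrolase of nucleoside phosphoramidates. The isy1 arrays gave 1.40 and 0.83, with a mean of 1.12 ± 0.11 (adjusted p = 2.39e-06, or 3.97e-05 over single arrays). Its first linked probe was at 0.66 and 0.67 there, and its second at -1.18 and -0.33. At 16 °C the contrast ran from 0.16 through 0.70 to 1.05 in tgs1 and from 0.20 through 0.48 to 0.87 in ynr004w, positive on all 12 arrays. In pci8 it was -0.35 and -0.59 (mean -0.47, adjusted p = 0.0115, or 0.237 over single arrays). The gene mean of HNT1 was -0.20 ± 0.032 in tgs1 at 16 °C (adjusted p = 0.00091, or 0.0489 over single arrays), with arrays from -0.42 to 0.03. All 4 metabolic genes were lower by their means in tgs1 at 16 °C, where 23.3% of all genes and 36 of the 86 were, but only HNT1 over single arrays. Among them were APE2, an aminopeptidase (-0.18, arrays from -0.57 to 0.10), and PMI40, which makes mannose 6-phosphate for glycosylation (-0.16, arrays from -0.28 to 0.03). HNT2, a dinucleoside triphosphate hydrolase, was lower in ist3 (-0.30 and -0.24), csn9, tgs1 and ynr004w at 16 °C, over pair means alone.

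The 11 genes on the transcription and chromatin list were lower by their means in 6 cases and higher in 2 in tgs1 at 16 °C. Their median was -0.11 against -0.0012 over all genes, of which 23.3% were called lower and 22.8% higher. In isy1 4 were lower and 1 higher, where 21.4% and 20.8% of all genes were. NHP6B, an HMG-box protein, was the only one of the 86 genes with a mean above 0 on all 6 tgs1 arrays in the cold, from 0.12 through 0.20 to 0.25 (mean 0.19 ± 0.034, adjusted p = 0.00148, or 0.304 over single arrays). Its probe contrast was 0.54 in tgs1 and 0.55 in ynr004w at 16 °C, also over single arrays, though it was below 0 on some arrays of each. RPO26, a subunit shared by the 3 RNA polymerases, had lower means in ist3 at -0.84 and -0.03 (mean -0.43), in isy1 at -0.22 and -0.36 (-0.29) and in csn12 at -0.28 and -0.19 (-0.23), none of them over single arrays. Its first linked probe was the low one, at -0.95 in ist3 and -0.60 in isy1, so the contrast was negative, with -0.50 and -0.41 on the isy1 arrays. In ist3 it was -1.70 and 0.15, and its mean of -0.78 (adjusted p = 1.57e-05, or 0.0143 over single arrays) was the 1 lower contrast called there over single arrays. VPS75, a histone chaperone, was lower in 5 comparisons over pair means, with -0.17 and -0.40 on the ist3 arrays, and ARP9, a subunit of SWI/SNF and RSC, in both strains at 16 °C (-0.16 in tgs1 and -0.11 in ynr004w, with arrays up to 0.05 in each). SRB2, of the Mediator head, had contrasts of 0.33 and 0.96 in isy1 (mean 0.65, adjusted p = 0.000277, or 0.0031 over single arrays).

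The signalling and cytoskeleton list, 11 of the 86, included the highest gene mean in ist3. GLC7, the catalytic subunit of protein phosphatase 1, was at 0.13 and 1.02 on the ist3 arrays, with a mean of 0.57 ± 0.055 (adjusted p = 6.14e-05, or 0.0027 over single arrays). Of its 4 probes, 3 stood between 0.52 and 0.85 in ist3 and 1 at 0.17. SAC6, the actin-bundling protein fimbrin, is not on that list and was at 0.57 and 0.25 in ist3 (mean 0.41 ± 0.055, adjusted p = 0.000248, or 0.0421 over single arrays). It was also higher in csn12 at 0.30 and 0.22, in YPR045C at 0.34 and 0.11 and in csn9 at 0.30 and 0.17, and lower in isy1 with a mean of -0.18, over pair means alone. LSB3, an actin-patch protein, followed it in csn12 at 0.25 and 0.25 and in YPR045C at 0.17 and 0.24, and was lower in pci8 at -0.38 and -0.10. PHO85, a cyclin-dependent kinase, was lower on all 6 tgs1 arrays at 16 °C, from -0.34 through -0.27 to -0.08 (mean -0.25 ± 0.031, adjusted p = 0.000269, or 0.00196 over single arrays), and on all 6 ynr004w arrays, with a mean of -0.15. GIM5, a subunit of prefoldin, which hands actin and tubulin to their folding chamber, was lower on all 6 tgs1 arrays at 16 °C, from -0.61 through -0.29 to -0.02 (mean -0.30 ± 0.031, adjusted p = 8.04e-05, or 0.0018 over single arrays). In ynr004w at 16 °C its mean was -0.19, with arrays of both signs (adjusted p = 0.052 over single arrays).

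The DNA repair and chromosome segregation list held 9 genes. MMS2, a ubiquitin-conjugating enzyme variant of post-replication repair, was lower on all arrays of both strains at 16 °C, from -0.40 through -0.27 to -0.10 in tgs1 and from -0.35 through -0.23 to -0.16 in ynr004w. Its means were -0.26 ± 0.033 (adjusted p = 0.000284, or 0.00882 over single arrays) and -0.24 ± 0.033 (adjusted p = 0.000561, or 0.0173 over single arrays). The third probe carried this, at -0.52, -0.47 and -0.59 at 10, 25 and 40 min in tgs1. RAD14, which recognises damage in nucleotide excision repair, was lower over pair means in YPR045C, ist3, isy1 and tgs1 at 16 °C, but in ist3 its arrays were at 0.31 and -1.04. RFA2, of the single-strand binding protein RPA, had contrasts of 1.03 and 0.19 in csn12 (mean 0.61, adjusted p = 0.0122, or 0.059 over single arrays). MOB1, a partner of the mitotic exit kinase, was higher in isy1 at 0.34 and 0.06, over pair means alone.

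The 6 genes on the mitochondrion list were lower in 4 cases and higher in none in tgs1 at 16 °C. In isy1 and in ynr004w at 16 °C they were lower in 3 and higher in none. Of all genes, 23.3%, 21.4% and 16% were called lower in these 3 comparisons. MRPL44, a protein of the large mitochondrial ribosomal subunit, was called lower in 6 of 10 comparisons, from -0.13 in tgs1 at 16 °C to -0.30 in csn12, and in none over single arrays. It was below 0 in all 14 pair means, as were CPT1, RAD14 and RRT8, 4 genes singled out after their values were seen. In csn12 its arrays were at 0.04 and -0.64, in YPR045C at 0.12 and -0.59, and in csn9 at -0.25 and -0.15, so that of these 3 strains both arrays were negative in csn9 alone. OM14, of the mitochondrial outer membrane, had the lowest mean of the 86 in isy1, at -0.66 and -0.28 (mean -0.47 ± 0.054, adjusted p = 8.42e-05, or 0.203 over single arrays), with all 3 probes below 0. ERV1, an oxidase of the intermembrane space, was lower in isy1 at -0.15 and -0.28. YML6, another mitochondrial ribosomal protein but not on that list, had contrasts of 0.25 and 1.60 in ist3 and 0.01 and 1.29 in csn12. The means were 0.93 and 0.65, of which only that in ist3 was also called over single arrays. RIM1, the mitochondrial single-strand binding protein, was called lower in YPR045C (-0.34), but its first linked probe had a value on the second array alone there. Its contrast there was -0.72 on the second array, the 1 array with all probes. The pair value of -1.02 sets the first probe of that array against the other probes on both arrays, and it is the 1 lower contrast counted in YPR045C (adjusted p = 0.000168, or 0.577 over single arrays). RIM1, chosen after its values were seen, thus has a call that rests on a probe with no dye balance.

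The list of lipid, cell wall and glycosylphosphatidylinositol genes, 8 in number, included the 2 enzymes that end phospholipid synthesis from diacylglycerol. EPT1, the ethanolamine phosphotransferase, was lower on all 6 tgs1 arrays at 16 °C, from -0.48 through -0.23 to -0.04 (mean -0.24 ± 0.031, adjusted p = 0.000284, or 0.0659 over single arrays), and on all 6 ynr004w arrays, from -0.39 through -0.19 to -0.08 (mean -0.20). In isy1 it was at -0.22 and -0.41. Of its 5 calls over pair means 4 were lower and 1 was higher, in csn12 with a mean of 0.22. Its probes disagreed, at 0.74, -0.22 and -0.58 in ist3. CPT1, the choline phosphotransferase, was lower in 5 comparisons, at -0.21 and -0.35 on the ist3 arrays and -0.34 and -0.11 on the csn9 arrays, over pair means alone. Of the 6 such genes with linked wells, 6 had a higher contrast in tgs1 and 5 in ynr004w at 16 °C and 5 in ist3, and none a lower one, where 77%, 74.5% and 74.5% of the 196 genes were called higher. SPT14, the enzyme that begins the glycosylphosphatidylinositol anchor, was at 0.43 and 0.84 in pci8 (mean 0.63, adjusted p = 0.00559, or 0.331 over single arrays). ECM33, a cell wall protein, had a lower contrast in isy1, at -0.09 and -0.97, and a higher one in both strains at 16 °C, with means of 0.41 in tgs1 (arrays from -0.76 to 1.57) and 0.48 in ynr004w (from -0.35 to 1.37).

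Further genes stood at the ends of a comparison. OST5, of the oligosaccharyltransferase, was at -0.67 and -0.18 in ist3 (mean -0.43 ± 0.054, adjusted p = 0.000189, or 0.0406 over single arrays), and the third probe was at -1.50 and -0.71 there. In csn9 OST5 was higher, at 0.43 and 0.08 (adjusted p = 0.00832, or 0.481 over single arrays). YPR063C, a protein of the endoplasmic reticulum, was higher in csn9 at 0.32 and 0.31, in pci8 at 0.31 and 0.33 and in ist3 at 0.06 and 0.54, over pair means alone. Its contrast was lower in csn9 at -0.52 and -0.34 and in pci8 at -0.55 and -0.72. YDL012C, a plasma membrane protein, had contrasts of 0.29 and 0.90 in tgs1 at 30 °C (mean 0.60 ± 0.105, adjusted p = 0.00124, or 0.0448 over single arrays). It was the gene whose contrast was called there over single arrays. MAF1, the repressor of RNA polymerase III, was lower in csn12 at -0.10 and -0.44 (adjusted p = 0.00542, or 0.384 over single arrays). DTD1, which clears D-amino acids from tRNAs, was higher in csn12 at 0.22 and 0.28 and in pci8 at 0.06 and 0.38. CMC2, of cytochrome oxidase assembly, was lower in pci8 at -0.45 and -0.07, and IWR1, an import factor of RNA polymerase II, in csn9 at -0.28 and -0.17. RBS1 had a contrast of -0.77 and -0.39 in csn9. SPO1, the 1 gene on the meiosis and sporulation list, had a lower contrast in ist3 at -0.04 and -0.77 and a higher one in pci8 at 0.99 and 0.06. EFM5, which methylates elongation factor eEF1A, was lower in pci8 at -0.27 and -0.13. Except for OST5 in ist3 and YDL012C, the calls of this paragraph were not reached over single arrays.

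IST1, which regulates the ESCRT machinery that sorts membrane proteins into vesicles, had no linked wells, as had 9 more of the 86 genes. On the pci8 arrays its probes were at -1.92 and -0.82, at 0.17 and 0.05, and at 0.46 and 0.41. The gene mean of -0.27 ± 0.057 (adjusted p = 0.00619) thus came from 1 probe. The median over probes was 0.11, and the mean was 0.27 when probes with fewer than 4 of 6 spots on an array were left out, so the direction in pci8 was not fixed. In isy1 IST1 was at -0.24 and -0.50 (mean -0.37, adjusted p = 0.00056, or 0.176 over single arrays) and in ist3 at -0.49 and -0.24 (mean -0.36), with all 3 probes below 0 in each strain.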

How the data were processed

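The deposited values are log2 ratios of channel 1 (mutant) to channel 2 (wild type) for each spot of 28 two-colour arrays. Their base, direction and any background correction or normalization by the authors are not stated in the labels, but the array medians lay near 0. Each array was centred on the median of its spots. The array design put 1457 of 1536 probes in 982 named genes, with 6 spots a probe, and all 982 identifiers matched RefSeq gene names. Spots were averaged per probe, probes per gene, and the 2 dye-swapped arrays per condition. limma 3.58.1 (R 4.3.3) was fitted to 14 pair means in 10 groups, with Benjamini-Hochberg adjustment over all 982 genes, or over 196 genes for the probe contrast, and was tested on simulated data. A second fit took the 28 arrays singly with the array number, which marks dye orientation and no shared culture, as block.

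The genes named are those past the threshold of 0.05 with 1 sign on every array (the 3 highest and the 3 lowest per comparison), the 5 called most often, up to 6 also called over single arrays, and up to 3 per functional list with the largest mean change. SRB2, LSM2 and SMD2 fall under none of these rules and were chosen after their values were seen. So were some of the further comparisons given for the other genes. The members and the lists were chosen with earlier results of these data known. The functional lists are not complete, so a count on a list is not the total for that function. Alternatives changed the spot and probe summary, centring, scaling, missing-spot filter and time points used. Arrays give no count of molecules, so their number alone limits the precision. No sequences were used here.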

Additional observations from a re-analysis of the deposited data

How the results depend on the processing

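Entering the arrays singly with the replicate block (dye orientation, not pairing by culture) lowered nearly every count. By gene mean it called 1 gene in csn12, 0 in YPR045C, 4 in ist3, 0 in csn9, 0 in pci8, 0 in isy1, 6 in tgs1 and 2 in ynr004w at 16 °C, and 0 in ynr004w at 30 °C. By probe contrast it called 1 in csn12, 0 in YPR045C, 26 in ist3, 0 in csn9, 0 in pci8, 9 in isy1, 1 in tgs1 and 0 in ynr004w at 30 °C, and 32 and 27 in tgs1 and ynr004w at 16 °C. Of the values of named genes, 51 kept their side of the threshold in that fit, 67 lost their call and 0 reversed. The median over probes gave 5 genes in csn9, 13 in pci8, 20 in isy1 and 0 in ynr004w at 30 °C. Scaling between arrays gave 37 genes in csn9 and 43 in pci8, and contrasts of 30 in csn9, 37 in pci8 and 5 in tgs1 at 30 °C. The median over spots gave 11 contrasts in csn9 and 2 for tgs1 at 16 °C minus 30 °C. IST1 in pci8 reversed, to 0.11 with the median over probes and 0.27 with 4 of 6 spots required. The cause of these shifts was not tested.

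Leaving out 1 time point at 16 °C at a time, the gene counts ranged over 12 to 19 in csn12, 9 to 12 in YPR045C, 34 to 41 in ist3, 9 to 13 in csn9, 16 to 22 in pci8, 25 to 31 in isy1, 22 to 39 in tgs1 and 11 to 26 in ynr004w at 16 °C, and 0 to 2 in ynr004w at 30 °C. The contrast counts ranged over 9 to 20 in csn12, 1 to 20 in YPR045C, 44 to 54 in ist3, 0 to 15 in csn9, 16 to 27 in pci8, 31 to 37 in isy1, 8 to 17 in tgs1 and 8 to 20 in ynr004w at 30 °C, and 40 to 52 in tgs1 and 35 to 52 in ynr004w at 16 °C. For 16 °C minus 30 °C they ranged over 0 to 9 in tgs1 and 0 to 1 in ynr004w, and for tgs1 minus ynr004w at 16 °C over 0 to 1. The 3 gene-mean differences gave 0 calls under every such omission.

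The 6 log-phase strains and both 30 °C samples had 1 dye-swapped pair each, so their spread was borrowed from the time points of a cold shift, which are not repeats of one state. Spot intensities were not used here, so how far a dim probe limits a ratio is unknown. The log base and direction are not stated. The sources used here do not place a probe in its transcript, so the probe contrast cannot be read as splicing.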
